A study of Mus musculus with 4 samples.

Results

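The 10 genes of the cellular answer to low oxygen named Hif1a, Epas1, Egln1, Egln3, Slc2a1, Pdk1, Car9, Adm, Ndrg1 and Ankrd37 were examined in mouse lungs carrying 4T1 metastases. They were selected by gene name from the table of read counts, in which they are 10 of 56748 genes. 4T1 is a mouse line of triple-negative breast cancer (TNBC), and 4T1-FLuc cells also carry firefly luciferase. Female BALB/cJ mice, 7 weeks of age, received 2000000 of these cells through the tail vein, and all 4 samples share this. The 2 control samples came from mice given saline (PBS in the labels). The 2 treated samples came from mice given ADC/cmLumiOpto, which joins an anti-CD276 antibody carrying the microtubule poison mertansine (DM1) to cmLumiOpto. This gene therapy is an adeno-associated virus in antibody-tagged exosomes whose cfos promoter drives a light-gated channel of the inner mitochondrial membrane. The vector also carries the luciferase NLuc, which makes the light from its substrate ViviRen. The labels give 16 mg/kg of the conjugate and 3 weeks of treatment and add the abbreviation Olap, whereas the methods give 8 mg/kg of the conjugate and 2 mg/kg of ViviRen. The labels call the material tumor cells from the lung, and the methods call it dissociated lung tissue.

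Cells sense oxygen through the hypoxia-inducible factors (HIF). With oxygen present, prolyl hydroxylases of the EGLN family mark the HIF alpha subunits for destruction through the VHL ubiquitin ligase. When oxygen is short the alpha subunits stay, pair with ARNT and bind a short DNA motif near genes for glucose uptake, glycolysis, acid control and vessel growth. The alpha subunits are controlled mainly as proteins, so their RNA levels are not a reading of HIF activity. In solid tumors these target genes are widely used as markers of poorly supplied regions, while EPAS1 is abundant in the endothelium of normal lung.

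The 4 libraries held 15263375 to 19675436 counts, and levels are given as CPM, counts scaled to the normalized library size. A level of 3 counts equals 0.152 to 0.197 CPM, a floor that covers counting error only, and each of the 10 genes was above 1 CPM in each sample and passed the filter on low counts. Markers of lung and blood cells were present in each library beside the epithelial keratin Krt8 and the adhesion gene Epcam, so the RNA was not from tumor cells alone. The libraries also differed in these cells within a group. Summed markers of alveolar type 2 cells stood at 1677 CPM in saline sample 1 and 437 CPM in saline sample 2, against 5696 and 4892 CPM in the treated samples. Summed neutrophil markers reached 8257 CPM in treated sample 2 and 573 to 1336 CPM in the other libraries. Fibroblast markers summed to 5151 and 3544 CPM with saline and to 1767 and 1459 CPM with treatment. In such bulk RNA, fewer cells of a type and less RNA per cell cannot be told apart.

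Of the 10 genes, 8 had a lower mean after ADC/cmLumiOpto, and Epas1 and Ankrd37 had a higher one. Among all 15320 tested genes, 7359 had a negative log2 fold change. Hif1a, Egln1, Egln3, Pdk1, Car9 and Ndrg1 were lower in both treated samples than in either saline sample, and Epas1 was higher in both. Slc2a1, Adm and Ankrd37 overlapped between the groups. No gene of the 15320 tested passed an adjusted p of 0.05 in the quasi-likelihood test of edgeR (0%), where the smallest adjusted p was 0.116 and 3553 genes had an unadjusted p under 0.05. Of the 10 genes, 6 were lower and 1 was higher with an unadjusted p under 0.05, beside 12.2% lower and 11.0% higher of all tested genes. Groups that did not overlap were counted for 6 lower and 1 higher of the 10, beside 28.8% lower and 28.1% higher of all tested genes. The median log2 fold change of the 10 genes was −0.74, and that of all tested genes was 0.03.

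**Figure D1:**
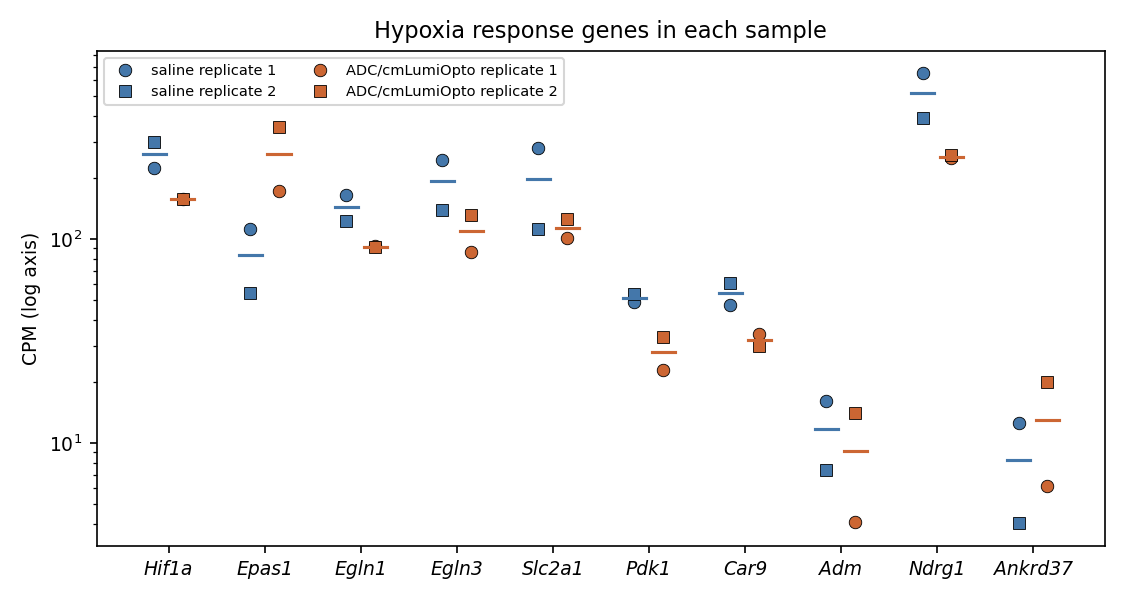
Level of each gene in CPM (log axis) in the 2 saline samples (blue) and the 2 ADC/cmLumiOpto samples (orange), with circles for replicate 1, squares for replicate 2 and short lines for group means. Epas1 is the gene whose treated samples, at 171.8 and 352.9 CPM, both lie above its saline samples, while 6 genes lie lower in both treated samples.

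Other tests of the same counts, and a fit without the filter, called more genes at the same threshold. The exact test of edgeR put 5 of the 10 genes under an adjusted p of 0.05 (Hif1a, Epas1, Pdk1, Car9 and Ndrg1), beside 7.46% of all tested genes. DESeq2 called these 5 and Egln1, beside 8.83% of all genes. Without a filter on low counts, the quasi-likelihood test called 8 of the 10, leaving out Adm and Ankrd37, beside 8.84% of the 25563 genes then tested. The direction of each gene was the same in these 3 analyses as in the quasi-likelihood test with the filter.

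The DNA upstream of these genes was searched for the motif that HIF binds. RefSeq promoters of GRCm38.p6 held 8 of the 10 genes, and the 250 bases before each start were searched on both strands for ACGTG and GCGTG, the forms of the hypoxia response element core. At least 1 match was found in 38.6% of 32851 promoter windows, at least 3 in 6.58%, and ACGTG at least once in 16.6%. Counts of matches were 3 for Hif1a, 2 each for Egln1, Slc2a1 and Adm, 1 each for Egln3, Pdk1 and Car9, and 4 for Ankrd37. Pdk1 has another listed start whose window held 0 matches. The 4 windows below, 5′ to 3′ along the gene with matches in capitals, were chosen to show 3 genes that were lower in both treated samples and, with Ankrd37, the window with the most matches.
Hif1a, chr12:73907617-73907866, plus strand: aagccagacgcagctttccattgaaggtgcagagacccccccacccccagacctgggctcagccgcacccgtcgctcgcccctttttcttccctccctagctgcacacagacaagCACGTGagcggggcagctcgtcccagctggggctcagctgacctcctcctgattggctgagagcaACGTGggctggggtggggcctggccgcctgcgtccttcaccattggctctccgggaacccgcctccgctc
Egln3, chr12:54203875-54204124, minus strand: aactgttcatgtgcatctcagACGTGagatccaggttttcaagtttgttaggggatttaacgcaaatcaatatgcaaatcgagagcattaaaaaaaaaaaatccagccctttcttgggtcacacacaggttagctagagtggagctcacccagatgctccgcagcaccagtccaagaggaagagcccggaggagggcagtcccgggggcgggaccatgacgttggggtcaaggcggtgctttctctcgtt
Pdk1, chr2:71872974-71873223, plus strand: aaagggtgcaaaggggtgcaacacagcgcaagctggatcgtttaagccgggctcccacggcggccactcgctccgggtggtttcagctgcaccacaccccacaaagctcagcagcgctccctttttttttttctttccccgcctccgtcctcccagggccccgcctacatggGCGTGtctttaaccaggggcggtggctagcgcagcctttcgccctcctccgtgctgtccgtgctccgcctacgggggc
Ankrd37, chr8:45999851-46000100, minus strand: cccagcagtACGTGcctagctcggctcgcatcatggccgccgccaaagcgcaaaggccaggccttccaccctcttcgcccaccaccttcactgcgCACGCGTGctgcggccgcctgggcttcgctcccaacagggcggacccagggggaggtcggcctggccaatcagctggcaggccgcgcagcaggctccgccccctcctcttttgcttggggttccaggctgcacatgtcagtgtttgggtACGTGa
A pair of the Hif1a matches lies in 1 palindrome, CACGTG, which reads the same on both strands and is also the E-box motif of other factors, and 2 of the Ankrd37 matches overlap in the same way. The single matches lie 229 bases before the start in Egln3, 78 in Pdk1 and 18 in Car9. A match of 5 letters is a description of the window, and binding was not measured.

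Hif1a and Epas1, the oxygen-regulated alpha subunits, had differences of opposite sign. Hif1a (ENSMUSG00000021109, mm39 chr12:73948149-73994304, plus strand) encodes HIF-1 alpha, which drives much of the glycolytic program. Its counts were 3584 and 4412 with saline and 2780 and 3212 with treatment. In CPM it stood at 224.1 and 297.4 with saline and at 157.6 and 156.6 with treatment. Both treated samples were thus lower than either control, and they lay closer together than the controls did. Hif1a had a log2 fold change of −0.73 (SE 0.19, 95% interval −1.18 to −0.28), with an adjusted p of 0.123 in the quasi-likelihood test of edgeR, 0.0464 in its exact test and 0.0193 in DESeq2. Epas1 (ENSMUSG00000024140, mm39 chr17:87061128-87140838, plus strand) encodes HIF-2 alpha. It had 1789 and 807 counts with saline and 3031 and 7236 counts with treatment. Its levels were 111.8 and 54.4 CPM in the controls and 171.8 and 352.9 CPM in the treated samples. Epas1 was higher in both treated samples, and within each group 1 sample held about double the level of the other, with a ratio of 2.06 in saline and 2.05 in the treated group. The log2 fold change was 1.66 (SE 0.44, 95% interval 0.60 to 2.72), with an adjusted p of 0.123 in the quasi-likelihood test, 0.0131 in the exact test and 0.00142 in DESeq2. Its log2 fold change was 1.05 without treated sample 2 and 2.27 without saline sample 1.

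Per kilobase of gene, the scale on which genes can be compared with each other, the order of the 2 subunits was opposite in the 2 groups. The ratio of Epas1 to Hif1a in CPM per kilobase was 0.526 and 0.193 with saline and 1.15 and 2.38 with treatment. Hif1a was the more abundant subunit RNA in both controls, and Epas1 in both treated samples. With 2 samples against 2, an exact two-sided permutation test of such a ratio cannot give a p below 0.333.

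Epas1 marks lung endothelium, and endothelial markers moved with it. The 12 endothelial markers summed to 645 and 469 CPM with saline and to 742 and 1155 CPM with treatment, so the order of the 4 samples was the same as for Epas1. Of the 12, 7 were higher and 0 lower with an unadjusted p under 0.05, beside 11.0% higher and 12.2% lower of all tested genes. Each of the 12 was above 1 CPM in each sample. Pecam1, an adhesion protein of endothelial junctions, had 143.3 and 116.9 CPM with saline and 152.6 and 219.9 CPM with treatment, a log2 fold change of 0.52 (SE 0.23). Cdh5, the endothelial cadherin, overlapped between the groups, with 149.4 and 126.2 CPM with saline and 109.9 and 169.0 CPM with treatment. The ratio of Epas1 to Pecam1 per kilobase was 0.870 and 0.519 with saline and 1.25 and 1.79 with treatment, and its ratio to Cdh5 was 0.563 and 0.324 with saline and 1.17 and 1.57 with treatment. These 2 genes lie in the lower part of the list, whose log2 fold changes ran from −0.10 (Ptprb) to 2.13 (Car4) with a median of 0.94. Car4, Calcrl (1.85) and Ramp2 (1.71), named here after their values were seen, had larger log2 fold changes than Epas1, and the rest of the 12 had smaller ones. As a share of the summed CPM of all 12, Epas1 stood at 17.3% and 11.6% with saline and at 23.2% and 30.6% with treatment. That sum weighs abundant markers most, and Cdh5 and Pecam1 were the most abundant of the 12 in both controls. Alveolar type 1 markers, at 286 and 117 CPM with saline and 740 and 733 CPM with treatment, were also higher in both treated samples. So was the surfactant gene Sftpc, with a log2 fold change of 2.70 (SE 0.74) and with 4321 and 3426 CPM in the treated samples. Neither rose from treated sample 1 to treated sample 2, as Epas1 did. The sample order of Epas1 was not particular to endothelial markers. Summed erythroid markers had it too, at 1110 and 352 CPM with saline and 1871 and 2075 CPM with treatment. So did summed B cell markers, at 6.58 CPM or less. The part of any cell type in the Epas1 difference was not tested.

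**Figure D2:**
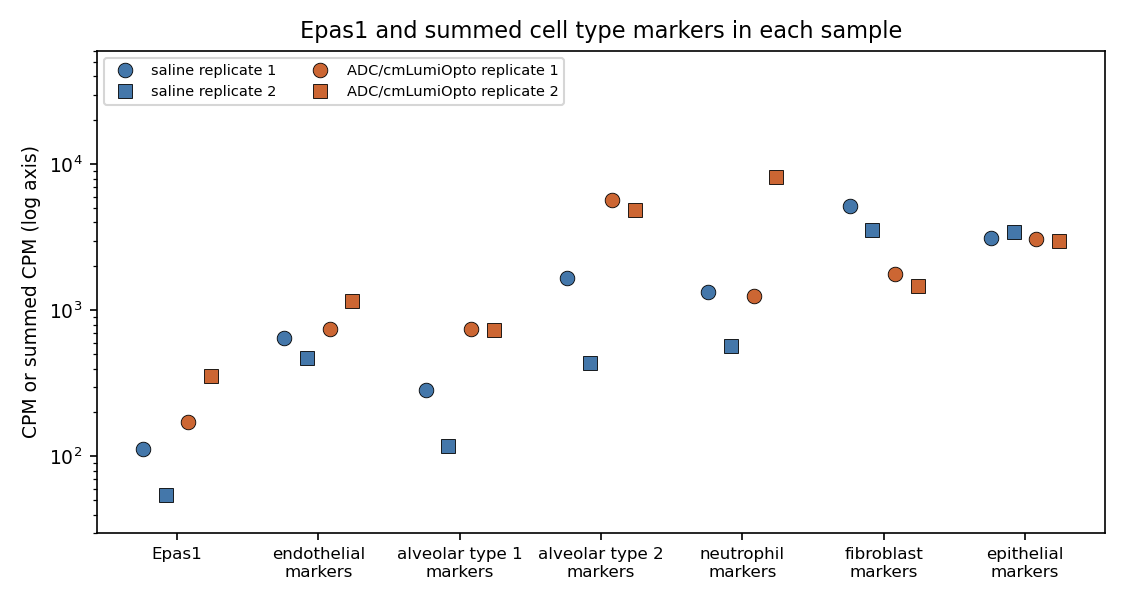
Epas1 in CPM and the summed CPM of 6 marker lists (log axis) in each of the 4 samples, with blue for saline, orange for ADC/cmLumiOpto, circles for replicate 1 and squares for replicate 2. Endothelial and alveolar sums are higher in both treated samples, neutrophil markers stand apart in treated sample 2 at 8257 CPM, and epithelial markers lie between 2974 and 3467 CPM in all 4 samples.

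The prolyl hydroxylase genes Egln1 and Egln3 were lower in both treated samples. Egln2, the other gene of the family and not among the 10, had 48.8 and 53.0 CPM with saline and 57.2 and 57.7 CPM with treatment (log2 fold change 0.18, SE 0.16; adjusted p = 0.529, quasi-likelihood test). Egln1 (ENSMUSG00000031987, mm39 chr8:125635326-125676063, minus strand) encodes PHD2, the main oxygen sensor of the pathway. Its counts were 2627 and 1808 with saline and 1623 and 1868 with treatment, or 164.2 and 121.9 CPM against 92.0 and 91.1 CPM. The treated samples were nearly equal and both below the controls. For Egln1 the log2 fold change was −0.64 (SE 0.19, 95% interval −1.11 to −0.18), with an adjusted p of 0.142 in the quasi-likelihood test, 0.0953 in the exact test and 0.0497 in DESeq2. Without saline sample 1 its log2 fold change was −0.41. Egln3 (ENSMUSG00000035105, mm39 chr12:54225767-54250646, minus strand) encodes PHD3, which is itself strongly induced by HIF. It had 3912 and 2056 counts with saline and 1529 and 2689 counts with treatment, or 244.6 and 138.6 CPM against 86.7 and 131.1 CPM. The groups did not overlap, but saline sample 2 and treated sample 2 were neighbours, and saline sample 1 stood alone at the top. The log2 fold change was −0.81 (SE 0.32, 95% interval −1.58 to −0.05; adjusted p = 0.198, quasi-likelihood test), and it was −0.35 without saline sample 1. The ratio of Egln3 to Egln1 per kilobase was 2.01 and 1.54 with saline and 1.27 and 1.94 with treatment, so that the groups overlapped.

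Slc2a1 and Pdk1 serve glucose use. Slc2a1 (ENSMUSG00000028645, mm39 chr4:118965908-118995180, plus strand) encodes the glucose transporter GLUT1. Its counts were 4468 and 1667 with saline and 1774 and 2568 with treatment, or 279.3 and 112.4 CPM against 100.5 and 125.2 CPM. Only saline sample 1 was high, and saline sample 2 lay between the treated samples. Its log2 fold change of −0.79 (SE 0.40, 95% interval −1.76 to 0.17; adjusted p = 0.279, quasi-likelihood test) became 0.0068 without saline sample 1. Pdk1 (ENSMUSG00000006494, mm39 chr2:71703568-71734202, plus strand) encodes a kinase that shuts pyruvate out of the mitochondrial citric acid cycle. It had 788 and 793 counts with saline and 401 and 679 counts with treatment, or 49.3 and 53.5 CPM against 22.7 and 33.1 CPM. The controls were close to each other and both above the treated samples. For Pdk1 the log2 fold change was −0.88 (SE 0.22, 95% interval −1.41 to −0.35), with an adjusted p of 0.123 in the quasi-likelihood test, 0.0264 in the exact test and 0.0229 in DESeq2.

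Car9 and Adm act outside the cell. Car9 (ENSMUSG00000028463, mm39 chr4:43506966-43513729, plus strand) encodes carbonic anhydrase IX, a surface enzyme that handles the acid of glycolytic tumor cells. Its counts were 760 and 904 with saline and 604 and 613 with treatment, or 47.5 and 60.9 CPM against 34.2 and 29.9 CPM. Both treated samples were below both controls, which differed by 1.28 times. The log2 fold change was −0.76 (SE 0.19, 95% interval −1.22 to −0.29), with an adjusted p of 0.123 in the quasi-likelihood test, 0.0404 in the exact test and 0.0364 in DESeq2. Adm (ENSMUSG00000030790, mm39 chr7:110226868-110229027, plus strand) encodes adrenomedullin, a peptide that widens vessels. It had 257 and 109 counts with saline and 72 and 289 counts with treatment, or 16.1 and 7.3 CPM against 4.1 and 14.1 CPM. High and low samples occurred in both groups. Adm had a log2 fold change of −0.36 (SE 0.62), and its 95% interval from −1.85 to 1.13 spanned changes in either direction (adjusted p = 0.755, quasi-likelihood test).

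Ndrg1 had the highest CPM of the 10 genes in the controls. Ndrg1 (ENSMUSG00000005125, mm39 chr15:66801167-66841489, minus strand) encodes a stress-responsive protein linked to growth arrest and metastasis. Its counts were 10386 and 5793 with saline and 4383 and 5272 with treatment, or 649.3 and 390.5 CPM against 248.4 and 257.1 CPM. Saline sample 1 was the highest, and the treated samples lay together below both controls. For Ndrg1 the log2 fold change was −1.04 (SE 0.26, 95% interval −1.65 to −0.43), with an adjusted p of 0.123 in the quasi-likelihood test, 0.0162 in the exact test and 0.00391 in DESeq2. Without saline sample 1 it was −0.63. Ankrd37 (ENSMUSG00000050914, mm39 chr8:46449939-46458744, minus strand) encodes an ankyrin repeat protein and is a HIF-1 target. It had 200 and 60 counts with saline and 109 and 406 counts with treatment, or 12.5 and 4.0 CPM against 6.2 and 19.8 CPM. Again each group held a high and a low sample. Ankrd37 had a log2 fold change of 0.65 (SE 0.68, 95% interval −0.98 to 2.28; adjusted p = 0.591, quasi-likelihood test). Ankrd37 overlaps Ufsp2 on the opposite strand, which had 538 to 769 counts, and since the sources used here do not state whether strand was kept, reads of the pair may not be separated.

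**Figure D3:**
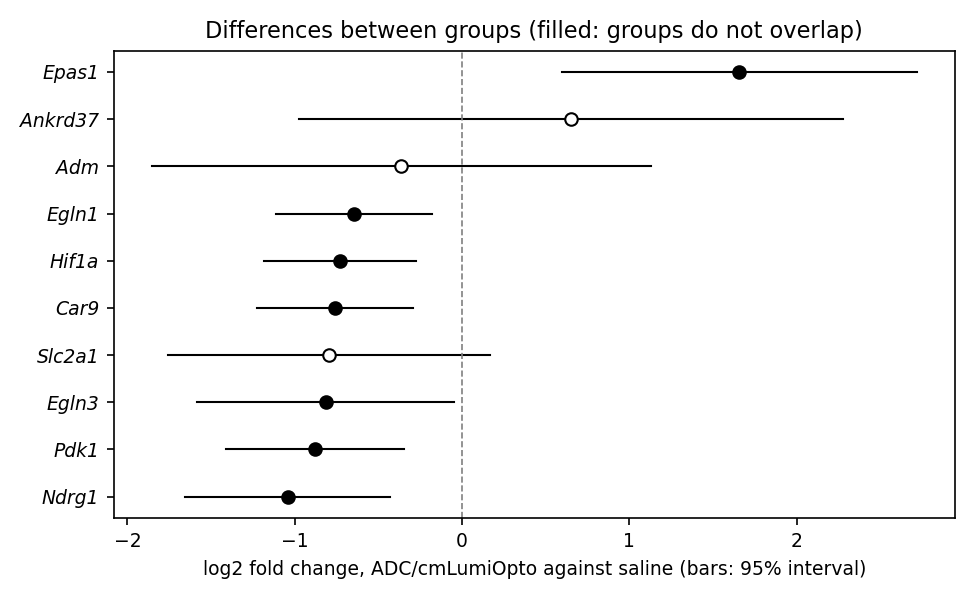
Log2 fold change of each gene, ADC/cmLumiOpto against saline, from the quasi-likelihood fit of edgeR with its 95% interval (bars), where filled points mark genes whose groups do not overlap. The intervals of Slc2a1, Adm and Ankrd37 include 0, and Epas1 at 1.66 is the highest.

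By their median, the 10 genes varied more between replicates than all tested genes did. Not each of them did so: Hif1a, Egln1, Car9 and Ndrg1 differed less than most genes between the treated samples, and Pdk1 between the saline samples. The median difference between the saline samples was 0.776 on the log2 scale for the 10 genes and 0.245 for all tested genes. Between the treated samples the medians were 0.429 and 0.286. Of the 10, 7 (Epas1, Egln1, Egln3, Slc2a1, Adm, Ndrg1 and Ankrd37) were higher in saline sample 1 than in saline sample 2, by 1.35 (Egln1) to 3.09 times (Ankrd37). Slc2a1 differed 2.49 times between the saline samples, a gap exceeded by 5.72% of tested genes, and 1.25 times between the treated samples. Adm and Ankrd37 differed 3.45 and 3.20 times between the treated samples, with treated sample 2 the higher in both. Summed markers were also higher in saline sample 1 than in saline sample 2 for each cell type listed, apart from epithelial and cycling cells. Of these sums, 4 (neutrophil, endothelial, erythroid and B cell) were also higher in treated sample 2 than in treated sample 1. B cell markers reached only 6.58 CPM. The part of these cells in the replicate differences was not tested. At the other end, Hif1a and Egln1 each differed by 1.01 times between the treated samples.

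**Figure D4:**
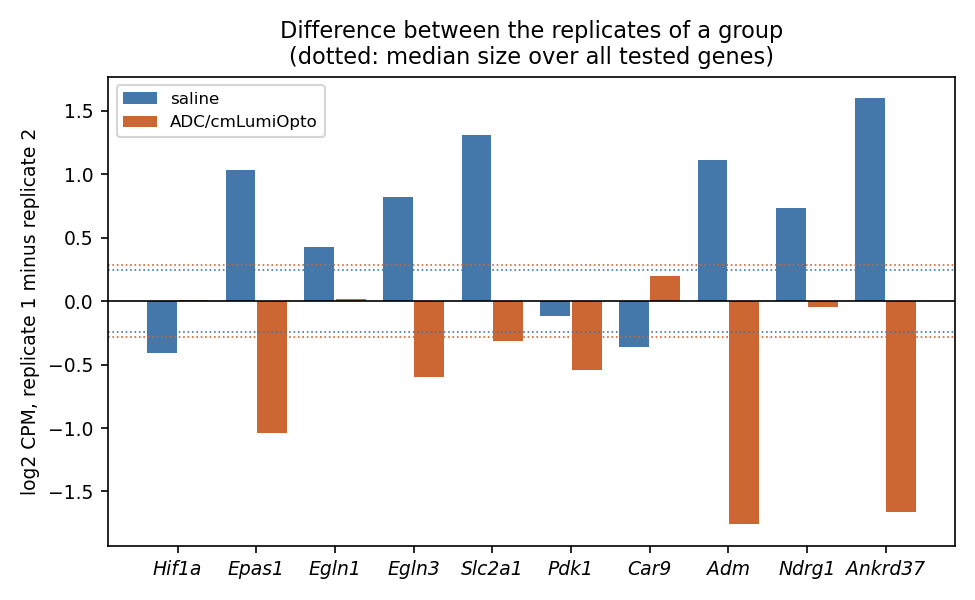
Difference in log2 CPM between replicate 1 and replicate 2 of each group (blue bars, saline, and orange bars, ADC/cmLumiOpto), with dotted lines at plus and minus the median size over all tested genes (0.245 and 0.286). Adm and Ankrd37 have long bars in both groups, while Hif1a, Egln1 and Ndrg1 have a difference in saline and almost none in the treated group.

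Ranked by mean level per kilobase, Ndrg1 stood at the top of the saline group with 78.8 ± 27.7 CPM per kilobase (SD, n = 2), followed by Egln3 (72.0 ± 28.2), Slc2a1 (55.9 ± 33.7), Hif1a (44.2 ± 8.8) and Egln1 (39.8 ± 8.3). Each neighbouring pair among these 5 overlapped between samples. Car9 (23.5 ± 4.1) and Epas1 (14.9 ± 7.3) came next, apart from each other, Epas1 overlapped Adm, and Adm (7.23 ± 3.81), Pdk1 (6.60 ± 0.38) and Ankrd37 (5.38 ± 3.89) overlapped at the bottom. In the treated group Epas1 stood first at 46.9 ± 22.9 CPM per kilobase, overlapping Egln3 (40.9 ± 11.8), which overlapped Ndrg1 (38.3 ± 0.9). Slc2a1 (32.2 ± 5.0), Hif1a (26.6 ± 0.1), Egln1 (25.5 ± 0.2) and Car9 (13.9 ± 1.3) followed without overlap between neighbours. Ankrd37 (8.44 ± 6.26), Adm (5.61 ± 4.37) and Pdk1 (3.59 ± 0.94) were again lowest. By group mean, Epas1 thus moved from the seventh place to the first. Ndrg1 moved from the first to the third, after Egln3, which it overlapped in both groups. In treated sample 1 alone, Ndrg1 (37.7 CPM per kilobase) and Egln3 (32.6) stood above Epas1 (30.7). The first place of Epas1 thus rests on treated sample 2. By group mean, Ankrd37 came to stand above Adm and Pdk1, though in saline sample 1 it was already above Pdk1 (8.12 against 6.33).

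The wider pathway was followed in 84 further genes, of which 83 were tested, since the erythropoietin gene Epo had 0 counts in each sample. Of these, 6 were higher and 25 lower with an unadjusted p under 0.05, beside 11.0% higher and 12.2% lower of all tested genes, a background that also holds for the counts by role. None of the 83 passed an adjusted p of 0.05 in the quasi-likelihood test, and the median log2 fold change was −0.33. Among the other HIF subunits, 0 of 3 had an unadjusted p under 0.05. Arnt, the common partner of the alpha subunits, had 80.3 and 87.6 CPM with saline and 64.7 and 76.7 CPM with treatment (log2 fold change −0.25, SE 0.17), Arnt2 overlapped between the groups, and Hif3a reached at most 55 counts. Among 14 further genes of oxygen sensing and HIF turnover, 2 were higher and 1 was lower. The 2 higher genes were Rbx1, a subunit of the VHL ligase complex (log2 fold change 0.52, SE 0.19), and Cited4, which had at most 19 counts. Cited2, a competitor of HIF for its coactivator, was the lower one (−0.45, SE 0.17). Vhl itself had a log2 fold change of 0.00 (SE 0.21) with overlapping groups.

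Targets in glucose and energy metabolism counted 2 higher and 9 lower of 26, with a median of −0.42. Eno1, a glycolytic enzyme, had 1409 and 1314 CPM with saline and 748 and 866 CPM with treatment, a log2 fold change of −0.75 (SE 0.17, adjusted p = 0.116, quasi-likelihood test). Pfkl, the liver-type phosphofructokinase, was also lower in both treated samples (−0.65, SE 0.17). Cox4i2, a cytochrome oxidase subunit found mainly in lung, was higher in both (1.60, SE 0.39). Ldha, which makes lactate, overlapped between the groups at 1526 and 1296 CPM with saline and 1427 and 1361 CPM with treatment. In pH control, beside Car9, Car12 (−1.02, SE 0.22) was lower in both treated samples, and the lactate exporter gene Slc16a3 overlapped (0.06, SE 0.41).

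Targets in vessels, blood and iron were 2 higher and 3 lower of 13, with a median of −0.18. Angptl4, an inhibitor of lipoprotein lipase, was higher at 31.2 and 29.9 CPM with treatment against 13.8 and 8.2 CPM with saline, a log2 fold change of 1.47 (SE 0.28, adjusted p = 0.116, quasi-likelihood test). The transferrin gene Trf (−0.80, SE 0.17) was lower in both treated samples. Vegfa, the main vessel growth factor of the pathway, had 86.0 and 84.7 CPM with saline and 49.1 and 87.1 CPM with treatment, so that only treated sample 1 was low (−0.33, SE 0.28).

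Among 15 targets in stress, mitophagy and growth control, 0 were higher and 5 lower. The repressor genes Bhlhe41 (−1.02, SE 0.16) and Bhlhe40 (−0.96, SE 0.25) and Igfbp3, which binds insulin-like growth factors (−0.93, SE 0.18), were lower in both treated samples. Bnip3, a mitophagy receptor, overlapped between the groups (−0.29, SE 0.20). Of 9 targets in chromatin and matrix, 0 were higher and 5 lower. The lysine demethylase genes Kdm3a (−0.81, SE 0.21) and Kdm4b (−0.76, SE 0.27) and the collagen cross-linking gene Loxl2 (−1.58, SE 0.18) were lower in both treated samples. Fibroblast markers were 7 of 7 lower with an unadjusted p under 0.05, beside 12.2% lower of all tested genes. Of 5 markers of cycling cells, 4 were lower by the same measure, among them Mki67 (−0.93, SE 0.17). Both lists moved the same way as these targets, and their part was not tested. Krt8 (−0.25, SE 0.20) and Epcam (0.18, SE 0.26), carried by tumor and other epithelium, had smaller differences. Krt8 was lower in both treated samples, at 1131 and 1117 CPM against 1141 and 1543 CPM, and Epcam overlapped between the groups. Of the 8 epithelial markers, 1 was lower (Krt14, −0.62, SE 0.24) and 0 were higher with an unadjusted p under 0.05. Groups did not overlap for 3 lower and 2 higher, beside 28.8% lower and 28.1% higher of all tested genes.

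**Figure D5:**
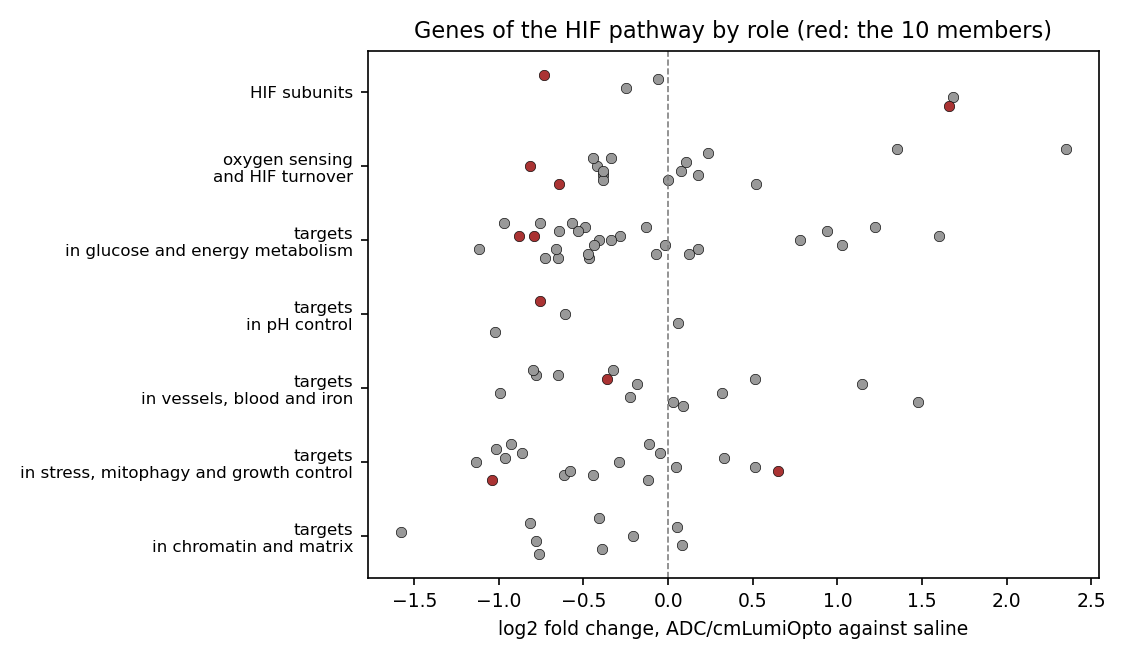
Log2 fold change, ADC/cmLumiOpto against saline, of the 10 genes (red) and the 83 further tested genes of the HIF pathway (grey), in rows by role, with vertical offsets only to separate points. Most points lie left of 0, with 55 of the 83 further genes negative, beside 7359 of all 15320 tested genes. Epas1 is the red point at 1.66 among the HIF subunits.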

How the data were processed

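The values deposited by the authors are raw counts, the reads assigned to each of 56748 genes, with no normalization. Reads were aligned with HISAT2, the build is mm39 per the submitters' processing notes and GRCm38 per the methods, and the program that counted reads is not given in the sources used here. Positions in the table differed from GRCm38 for all but 1 of the 10 genes, and are printed as mm39. The paper gives 4 samples per group, and 2 per group were analysed here. The 10 genes and all gene lists were chosen with earlier results of these data known.

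Counts were analysed in R 4.3.3 with edgeR 4.0.16. After filterByExpr (minimum count 10, minimum total 15), TMM normalization (factors 0.973 to 1.04) and estimateDisp, the 2 groups were tested with glmQLFit and glmQLFTest and Benjamini-Hochberg adjustment over 15320 genes. CPM per kilobase divides CPM by the gene length in the table. The methods describe 4 biological samples per group. The labels of the samples analysed here only number them and do not say whether they came from separate mice. The p-values thus measure the spread between these samples, which may be technical. Beside the 10 genes, the text names Arnt, Vhl, Vegfa, Bnip3, Ldha, the 3 tested genes of each list with the smallest p, apart from 2 that are not reported here, and 6 markers. Alternatives were the exact test, DESeq2 1.42.0, library size without TMM, upper-quartile normalization, 2 other filters, protein-coding genes only, offsets for gene length, a replicate block, and leaving out each sample. The scripts were tested on simulated data.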

Additional observations from a re-analysis of the deposited data

How the results depend on the processing

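Under the 9 alternatives that kept all samples, each of the 10 genes kept its direction, 6 to 8 of them had an unadjusted p under 0.05, beside 18.8% to 25.1% of all genes tested, and over all alternatives their median log2 fold change was between −0.84 and −0.38, the latter without saline replicate 1. The number of genes with an adjusted p under 0.05, which was 0 in the quasi-likelihood test of edgeR (3553 at an unadjusted p under 0.05), was 1143 in the exact test, 1353 in DESeq2, 2259 without the filter on low counts and 607 with a replicate block, and the cause was not tested. The replicate block pairs samples that share only a number: the differences between replicates correlated between the groups at r = 0.0985 over 15320 genes, which are not independent. With 1 sample left out, where the lone sample of a group was assumed to vary like the other group, 0 to 206 genes were called, with 206 without saline replicate 1. Slc2a1 then ranged from −1.29 to 0.0068, reversed without saline replicate 1. Adm ranged from −1.52 to 0.31, reversed without saline replicate 1 (0.31) and without ADC/cmLumiOpto replicate 1 (0.27). Ankrd37 ranged from −0.42 to 1.68, reversed without ADC/cmLumiOpto replicate 2. Over genes, log2 fold changes were lower for longer genes (Spearman rho −0.34), and with length offsets Epas1 was at 1.74 and Ndrg1 at −0.90. With 2 samples per group, the intervals of Slc2a1, Adm and Ankrd37 leave their direction unresolved.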
